A study of Mus musculus with 6 samples.

Results

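B cells carry a surface receptor for antigen, and some of them mature into plasma cells, which secrete antibody. A plasma cell enlarges its endoplasmic reticulum (ER), where new chains are threaded across the membrane, trimmed by signal peptidase, folded and, where misfolded, sent for degradation. XBP1 is the transcription factor known for driving that enlargement. Both cell types carry CD45 and are minor cells of resting muscle. The 8 genes described here cover this path: the B cell surface genes Ms4a1 and Cd79b, the plasma cell genes Mzb1, Derl3 and Eaf2, and Xbp1, Ssr4 and Sec11c, which serve secretion in many cells. They were taken by gene symbol, with earlier results of these data known. They are 8 of the 19321 genes named on the array, and each has 1 probe. All 8 were above background on all 6 arrays.

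The 6 one-colour arrays came from cells sorted fresh out of hind limb muscle of C57BL/6 mice. They were hybridised with RNA of CD31+ or CD45+ cells (a mixture of endothelial and blood-derived cells, called CD31_CD45 below), of PDGFRa+ mesenchymal progenitors and of satellite cells, each from aged mice (24 to 28 months) and from young mice (8 to 10 weeks). There was 1 array for each population and age, each from cells pooled over repeated sorts, so a difference between ages within a population has no replicate and no test. Tests between populations fit population and age together over all 6 arrays. Their error is the part of the age difference that the 3 populations do not share. Nothing in the labels makes the aged and young arrays repeats of one condition, so the p-values measure only that spread between these arrays. Fewer cells of a type and less RNA per cell cannot be told apart in such pools.

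Intensities are given in the units deposited by the authors, in which the median of each array is 25 and the lowest listed value is 0.7 to 0.9. Between 88.4% and 92.3% of 23473 probes were above background on an array. The log2 differences come from separately normalised values with an offset of 50, which understates the differences of dim genes. The sort genes were each highest in the population of their label. Pdgfra read 4149 in aged and 5700.4 in young PDGFRa+ cells, and Pax7 1361.6 in aged and 1055 in young satellite cells. Pdgfra also read 60.6 in aged and 7.6 in young satellite cells, against 28.4 in aged and 26.8 in young CD31_CD45 cells. Ptprc, which encodes CD45, read 414.6 in aged and 251.7 in young CD31_CD45 cells and at most 4.7 elsewhere, and Pecam1, which encodes CD31, read 2450.7 in aged and 2464.8 in young CD31_CD45 cells.

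The B cell surface genes were found in CD31_CD45 cells at both ages and were brighter in the aged sample. Ms4a1 (probe M300004265) encodes CD20, a membrane protein of B cells that plasma cells lose. It read 168.5 in aged and 64.9 in young CD31_CD45 cells, against 2.4 and 2.3 in aged and young PDGFRa+ cells and 2.4 and 2.1 in aged and young satellite cells. The lower CD31_CD45 array was thus far above the 4 other arrays, which lay close to the lowest listed values. Cd79b (M200001144) encodes Ig-beta, the chain that carries signals from the B cell receptor. It read 327.9 in aged and 147.7 in young CD31_CD45 cells, 21.8 and 36.2 in aged and young PDGFRa+ cells, and 7.1 and 8.6 in aged and young satellite cells. No array of one population overlapped another for Cd79b, and PDGFRa+ cells held the middle place.

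The plasma cell genes were each brightest on the array of aged CD31_CD45 cells, and Mzb1 and Derl3 were bright on that array alone. Mzb1 (M200005480) encodes an ER protein that helps B lineage cells assemble and secrete immunoglobulin. It read 759.2 in aged and 25.4 in young CD31_CD45 cells, against 8.2 and 7.2 in aged and young PDGFRa+ cells and 13.9 and 14.4 in aged and young satellite cells. Young CD31_CD45 cells stood only 1.76-fold above young satellite cells.

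Derl3 (M200007641) encodes a derlin, a membrane protein that draws misfolded chains out of the ER. It read 50.9 in aged and 3.5 in young CD31_CD45 cells, 4.7 and 6.3 in aged and young PDGFRa+ cells, and 1.1 and 3.7 in aged and young satellite cells. Apart from aged CD31_CD45 cells, the arrays overlapped and were dim. Eaf2 (M200014146) encodes a partner of the ELL transcription elongation factors. It read 59.9 in aged and 5.7 in young CD31_CD45 cells, 8.8 and 9.0 in aged and young PDGFRa+ cells, and 38.3 and 32.9 in aged and young satellite cells. Satellite cells therefore had the second highest Eaf2 signal, and young CD31_CD45 cells had the lowest.

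The promoter of Derl3 is shown because Derl3 is a known target of the unfolded protein response and was bright on 1 array, and that of Xbp1 because its gene was bright on every array. Both are RefSeq windows of build GRCm38.p6, on the + strand, from 250 bases before to 50 bases after the start site. Derl3 lies at chr10:75893148-75893447 and Xbp1 at chr11:5520391-5520690. Capitals mark the ER stress response element, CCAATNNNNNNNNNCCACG, here read on the opposite strand.
Derl3: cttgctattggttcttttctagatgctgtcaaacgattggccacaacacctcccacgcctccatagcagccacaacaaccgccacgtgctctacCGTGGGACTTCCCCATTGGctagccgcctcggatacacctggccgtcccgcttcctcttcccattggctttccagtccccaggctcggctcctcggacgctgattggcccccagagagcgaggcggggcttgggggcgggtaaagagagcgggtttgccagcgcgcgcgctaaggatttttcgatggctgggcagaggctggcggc
Xbp1: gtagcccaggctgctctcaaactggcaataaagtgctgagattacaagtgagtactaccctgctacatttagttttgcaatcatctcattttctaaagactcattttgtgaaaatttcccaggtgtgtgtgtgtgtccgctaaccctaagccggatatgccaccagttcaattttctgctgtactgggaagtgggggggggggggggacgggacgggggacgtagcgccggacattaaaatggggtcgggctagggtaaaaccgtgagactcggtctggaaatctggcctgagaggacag

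The search covered both strands for that element, for CCAAT and CCACG, the ends of that element, and for the core TGACGTG. Windows were in the table for 4 of the 8 genes, and Derl3 alone of these held the full element, at bases 95 to 113 of its window. Of 32851 promoter windows of the same length, 0.119% hold it, 32.8% hold CCACG, 37.4% hold CCAAT and 2.01% hold TGACGTG. The 3 windows of Eaf2 held CCAAT and none of the other letters, and those of Xbp1 and Ssr4 held no match. Among the ER folding and degradation genes described further on, 8 of the 28 with a window hold the element: Calr, Canx, Creld2, Dnajc3, Hsp90b1, Hspa5, Pdia6 and Syvn1. A match describes the letters of the window and is not a binding measurement.

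The secretory genes were bright on every array, and 2 of the 3 were brightest outside CD31_CD45 cells. Xbp1 (M200004492) read 1035.1 in aged and 881.8 in young CD31_CD45 cells, 1401.8 and 1422.9 in aged and young PDGFRa+ cells, and 1649.8 and 1183.7 in aged and young satellite cells. Its lower pair was that of CD31_CD45 cells, while the other populations overlapped. The probe gives 1 value for the gene and does not measure the splicing that activates XBP1.

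Ssr4 (M300000264) encodes a subunit of the translocon-associated protein complex, which helps chains enter the ER. It read 933.2 in aged and 873.7 in young CD31_CD45 cells, 1445.5 and 1474.1 in aged and young PDGFRa+ cells, and 1062.6 and 1253.0 in aged and young satellite cells. The populations did not overlap, with PDGFRa+ cells highest. Sec11c (M200005705) encodes a catalytic subunit of signal peptidase. It read 919.6 in aged and 726.3 in young CD31_CD45 cells, 421.5 and 544.9 in aged and young PDGFRa+ cells, and 346.2 and 349.4 in aged and young satellite cells. Sec11c thus followed the order of Cd79b at a far smaller spread between populations. Xbp1 and Ssr4 do not follow the name of B cell and plasma cell genes in these samples, and Eaf2 does so only in part.

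**Figure D1:**
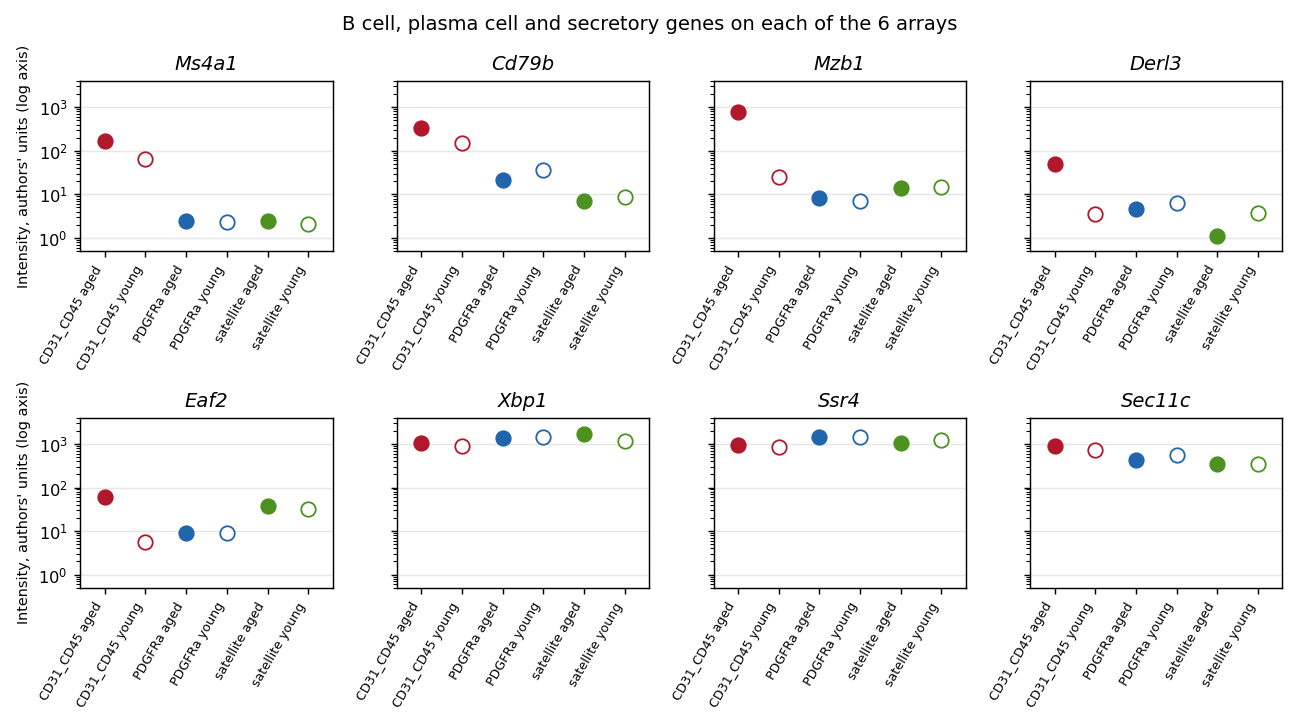
Intensity of each of the 8 genes on each of the 6 arrays, in the authors' units on a log axis, with aged samples as filled and young samples as open circles. Mzb1, Derl3 and Eaf2 peak on the aged CD31_CD45 array (759.2, 50.9 and 59.9), Ms4a1 and Cd79b are high on both CD31_CD45 arrays, and Xbp1, Ssr4 and Sec11c are bright on all 6.

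The first comparison asked which of these genes set CD31_CD45 cells apart from PDGFRa+ mesenchymal progenitors. Ms4a1 rose by 1.94 (SE 0.32, log2, adjusted p = 0.0272) and Cd79b by 2.01 (SE 0.38, adjusted p = 0.0350), in limma's fit with 2 arrays per population. Both pairs of arrays showed this direction, aged and young. Of the 8 genes 2 were called, at an adjusted p under 0.05 and at least 2-fold, beside 10.1% of all 18372 genes tested (5.40% higher and 4.70% lower). The median of the 8 was 0.65, against -0.01 over all genes tested.

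The other members were not called against PDGFRa+ cells. Sec11c stood at 0.80 (SE 0.17, adjusted p = 0.0443) and Ssr4 at -0.54 (SE 0.09, adjusted p = 0.0262), both past the p threshold and under 2-fold, and 28.7% of all genes passed that p threshold at any fold. Xbp1 stood at -0.41 (SE 0.12, adjusted p = 0.0914). Mzb1 had the largest difference, 2.39, and also the largest error (SE 1.16, adjusted p = 0.236). Its arrays differed by 4.25 between the aged and by 0.53 between the young samples of the 2 populations, and the fit counts this spread as error. Derl3 stood at 0.50 (SE 0.38, adjusted p = 0.429), with 1.09 between the aged and -0.09 between the young samples, and Eaf2 at 0.49 (SE 0.36, adjusted p = 0.411), with 1.08 and -0.10. The errors of Derl3 and Eaf2 were like that of Cd79b, and their differences were smaller.

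The calls of Ms4a1 and Cd79b rest on few arrays. Without the aged PDGFRa, the young PDGFRa, the aged satellite or the young satellite array, neither was called. Ms4a1 stood at 1.68 without the aged and 2.19 without the young PDGFRa array, and Cd79b at 1.63 and 2.38. Without either satellite array they stayed at 1.94 and 2.01. Without the young CD31_CD45 array Mzb1 stood at 4.27, but that fit holds no spread within CD31_CD45 cells. The slopes between scanner gains in the file headers put both CD31_CD45 arrays and the aged satellite array in one set and the other 3 arrays in another, so scanner set and population cannot be told apart in this comparison, and when the fit also held a term for scanner set, which only the 2 satellite arrays inform, 0 of the 8 were called (Ms4a1 2.46, adjusted p = 0.177, and Cd79b 2.46, adjusted p = 0.234).

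Against satellite cells the same B cell surface genes and a signal peptidase subunit were higher in CD31_CD45 cells. Cd79b rose by 2.60 (SE 0.38, adjusted p = 0.0174), Ms4a1 by 1.95 (SE 0.32, adjusted p = 0.0228) and Sec11c by 1.16 (SE 0.17, adjusted p = 0.0174). These are 3 of the 8, beside 11.7% of all genes tested (6.57% higher and 5.12% lower), and the median of the 8 was 0.89 against -0.02 over all genes. Aged CD31_CD45 and aged satellite cells share a scanner set, and within it Cd79b differed by 3.15, Ms4a1 by 2.47 and Sec11c by 1.33.

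Mzb1 (2.20, SE 1.16, adjusted p = 0.247) and Derl3 (0.63, SE 0.38, adjusted p = 0.301) were not called against satellite cells. Their differences were 4.10 and 1.25 between the aged samples and 0.30 and 0.00 between the young. Eaf2 stood at -0.20 (SE 0.36, adjusted p = 0.744), at 0.36 between the aged and -0.75 between the young samples, so its direction turned with age. Xbp1 (-0.50, adjusted p = 0.0529) and Ssr4 (-0.32, adjusted p = 0.0726) were lower without passing the adjusted p threshold, which 34.9% of all genes passed at any fold. Without the aged or without the young satellite array 0 of the 8 were called, with Cd79b at 2.37 and 2.83 and Ms4a1 at 1.69 and 2.21. With the scanner set term 0 were called, with Cd79b at 2.83 and Ms4a1 at 2.21. Ms4a1 also lost its call without either PDGFRa array. Without the young CD31_CD45 array, which leaves 1 array of that population, Cd79b stood at 3.20.

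Between PDGFRa+ and satellite cells none of the 8 was called, beside 7.29% of all genes tested (4.09% higher and 3.20% lower). Of all genes, 7013 had an unadjusted p under 0.05 by limma. No member had an unadjusted p under 0.05 here. The largest differences were those of Eaf2 (-0.69, SE 0.36, adjusted p = 0.274) and Cd79b (0.59, SE 0.38, adjusted p = 0.366). Cd79b passed in the authors' value table, at 1.72 with an adjusted p of 0.0463, where dim values are not compressed by the offset. The order of CD31_CD45, then PDGFRa+, then satellite cells in Cd79b and Sec11c was thus called for both genes between its ends, and for Cd79b also at the first step. The first step of Sec11c passed the p threshold under 2-fold, and the second step was not called for Cd79b or for Sec11c (0.35, SE 0.17, adjusted p = 0.240).

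**Figure D2:**
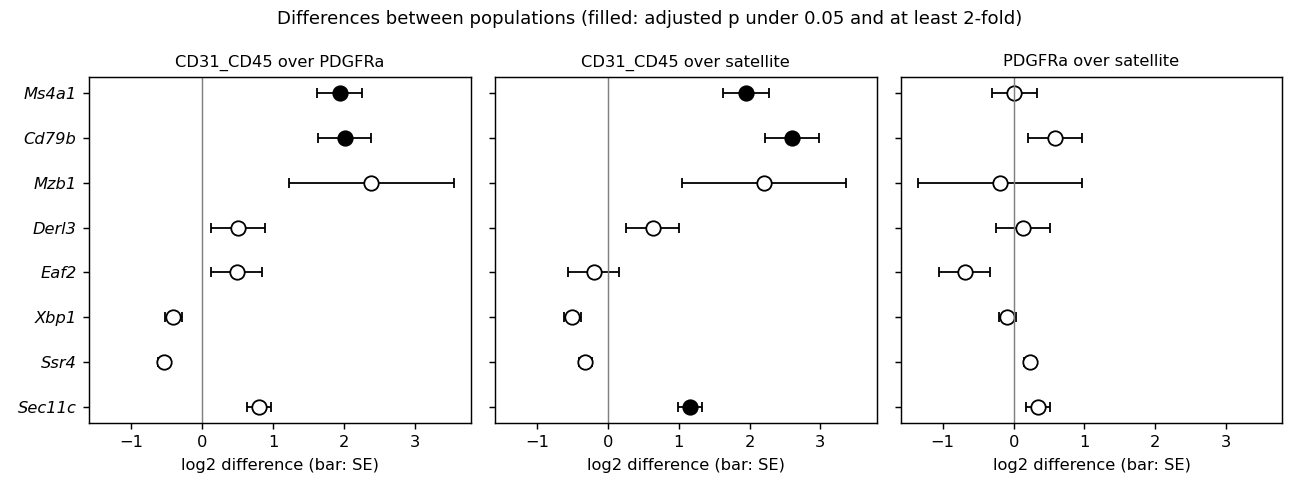
Log2 difference of each of the 8 genes between populations, with bars of 1 SE, from the fit over all 6 arrays. Ms4a1 and Cd79b are called in CD31_CD45 cells against both other populations and Sec11c against satellite cells, while Mzb1 has the widest bar (SE 1.16) and is not called.

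Within CD31_CD45 cells the B cell and plasma cell genes were higher in the aged sample. Mzb1 was highest of the 8, at 3.79 on the normalised log2 scale and 29.9-fold in the authors' units. Only 0.122% of the 18090 genes above background on the brighter array differed by as much or more in this direction. Derl3 was higher by 1.15 and 14.5-fold in the authors' units, and Eaf2 by 1.22 and 10.5-fold. For these dim genes the offset shrinks the normalised value, and both scales give the same direction.

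The B cell surface genes differed less by age than Mzb1 did on either scale. Ms4a1 was higher in the aged CD31_CD45 sample by 1.05, which is 2.60-fold in the authors' units, and Cd79b by 1.04, which is 2.22-fold. In all, 5 of the 8 were at least 2-fold higher on the normalised scale, beside 0.514% of all genes, and none was at least 2-fold lower, beside 0.0663%. The median of the 8 was 1.05 against -0.01 over all genes. The 8 genes were chosen with earlier results of these data known, so these figures describe them and are not an independent test. The secretory genes stood apart, with Sec11c at 0.40, Xbp1 at 0.28 and Ssr4 at 0.15. With the local background of each spot, Mzb1 stood at 3.15, Ms4a1 at 0.88, Cd79b at 0.69, Eaf2 at 0.65 and Derl3 at 0.33, and Sec11c turned to -0.96, so 1 of the 8 was at least 2-fold higher.

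The other populations showed no such difference. In PDGFRa+ cells the 8 genes lay between -0.25 (Cd79b) and 0.07 (Mzb1), with 0 at least 2-fold apart, beside 0.263% of all genes higher and 0.162% lower. In satellite cells they lay between -0.15 (Ssr4) and 0.48 (Xbp1), also with 0, beside 1.13% higher and 0.0999% lower. In the authors' units Derl3 was lower in aged satellite cells, at 1.1 against 3.7, and both values lie near the lowest listed signal. The difference between the populations in their age effects could not be tested with 1 array each.

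**Figure D3:**
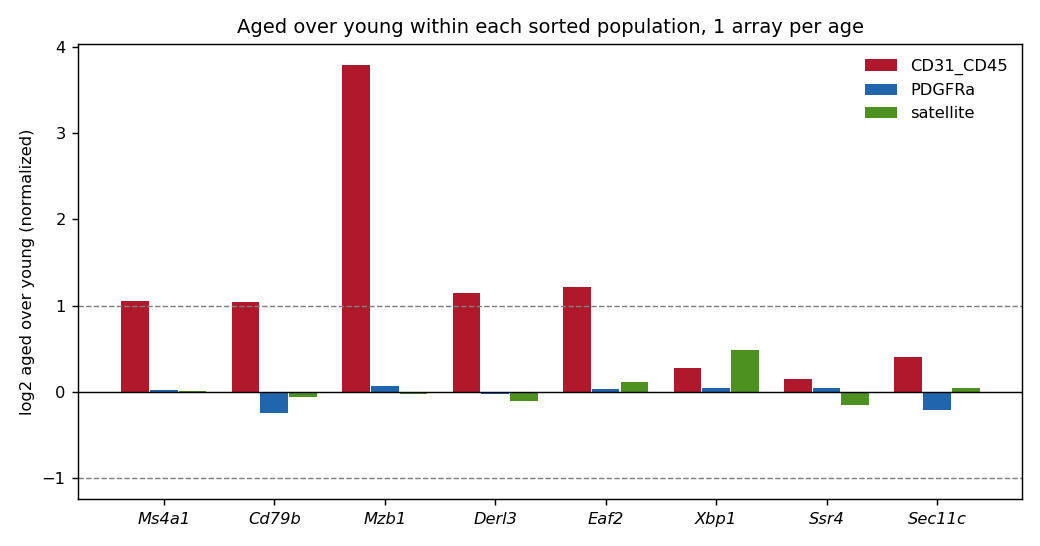
Log2 aged over young of each of the 8 genes within each population, 1 array per age, with dashed lines at 2-fold. In CD31_CD45 cells 5 genes pass 2-fold, Mzb1 at 3.79, and in PDGFRa+ and satellite cells none does.

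The age term common to the 3 populations called none of the 8 genes and 0 of all genes tested. By limma 2026 genes had an unadjusted p under 0.05, none of them a member. Mzb1 stood at 1.28 (SE 0.95, adjusted p = 0.685) and Xbp1, with the smallest unadjusted p of the 8, at 0.27 (SE 0.10, adjusted p = 0.468).

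The CD31_CD45 age pair also differed in markers of other cell types. Of 10 pan-hematopoietic markers 9 were higher in the aged sample (median 0.43), with a summed intensity of 8196.2 in aged and 7272.9 in young cells, and Ptprc was higher by 0.71. Of 10 T and NK cell markers 9 were higher and 3 at least 2-fold on the normalised scale (6 in the authors' units), Cd3g at 1.39, Cd3d at 1.24 and Nkg7 at 1.18, with a sum of 766.3 in aged and 326.3 in young cells. The share of all genes at least 2-fold higher was 0.514% on the normalised scale and 2.72% in the authors' units. Lymphocyte genes other than those of B cells were thus higher in the same sample.

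Of 11 endothelial markers 9 were lower, with a sum of 22556.8 in aged and 30092.1 in young cells. Of 11 macrophage and monocyte markers 8 were higher, with a sum of 28978.0 in aged and 24861.0 in young cells, and none was at least 2-fold. Granulocyte markers had 6 of 8 higher, none at least 2-fold, with sums of 4247.2 in aged and 2493.0 in young cells. All markers of these 5 lists were above background on both arrays apart from Mpo, a granulocyte gene, which was not above background in the aged sample. The part of these shifts in the age difference of the 8 genes was not tested. Plasmacytoid dendritic cells, which also express some plasma cell genes, had 0 of 6 markers higher, and Siglech read 67.1 in aged and 76.8 in young cells. Of the 6, only Siglech and Bst2 were called higher in CD31_CD45 than in PDGFRa+ cells, beside 5.40% of all genes. The other 4 did not set these populations apart and could not report a change in these cells. Other dendritic cells had 3 of 6 markers higher, mast cells 2 of 6, and erythroid cells and platelets 3 of 5, none at least 2-fold on the normalised scale. Satellite cell markers were lower for 8 of 11, with Chodl at -1.21, and mesenchymal progenitor markers for 7 of 10, with Cd34 at -1.01. These were the 2 list markers at least 2-fold lower on that scale, beside 0.0663% of all genes. In the authors' units 5 of 11 satellite cell and 1 of 10 progenitor markers were at least 2-fold lower, beside 1.19% of all genes. Pax7, among them, was dim, at 3.7 in aged and 10.6 in young cells. The median of the 10 progenitor markers was -0.06, and Pdgfra stood at 0.01.

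Most of the wider B cell list was higher in the aged CD31_CD45 sample, by less than Ms4a1 and Cd79b on the normalised scale. Of 21 B cell identity genes 17 were higher and 0 at least 2-fold on that scale, with a median of 0.22 against -0.01 over all genes. In the authors' units 9 of the 21 were at least 2-fold higher, beside 2.72% of the 17381 genes with a value on both arrays. That order did not hold for every gene in those units, where the offset does not shrink dim genes. There Pou2af1 differed by more than Ms4a1 (2.60-fold), and Cd79a by more than Cd79b (2.22-fold). Cd79a, the partner of Cd79b, read 40.5 in aged and 16.4 in young CD31_CD45 cells (log2 0.53), and the transcriptional coactivator Pou2af1 read 33.6 in aged and 11.5 in young cells (0.54). Pax5, the factor that fixes B cell identity, was near the lowest signal at 3.3 in aged and 1.9 in young cells. Fcer2a (-0.17) and Vpreb3 (-0.23) were lower.

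Between populations 18 of the 21 were higher in CD31_CD45 than in PDGFRa+ cells, with a median of 0.52. Of these 3 rose, beside 5.40% of all genes: Fcmr, the Fc receptor for IgM (2.03, SE 0.27, adjusted p = 0.0170), Cd37, a tetraspanin of B cells (1.90, adjusted p = 0.0193), and Fcrla (1.32, adjusted p = 0.0305). Against satellite cells these and Ebf1 rose, 4 of 21 in all, beside 6.57% of all genes. Ebf1, an early B cell factor that stromal and fat precursor cells also use, was highest in PDGFRa+ cells, at 484.1 in aged and 431.8 in young cells, and rose there by 2.39 over satellite cells (SE 0.12, adjusted p = 0.00644).

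The plasma cell list differed less with age than Mzb1 did. All 12 of its genes were higher in aged CD31_CD45 cells, with a median of 0.20, and 0 were at least 2-fold on the normalised scale. In the authors' units 2 were at least 2-fold higher, beside 2.72% of all genes: Tent5c and the costimulatory receptor Cd28 (134.0 in aged and 63.2 in young cells). Of the T and NK cell markers, 6 of 10 were at least 2-fold higher in those units, and their part in the Cd28 value was not tested. Tent5c, a poly(A) polymerase, came closest to 2-fold on the normalised scale, at 86.9 in aged and 26.6 in young cells (log2 0.99). Tnfrsf17, which encodes the plasma cell survival receptor BCMA, read 39.0 in aged and 33.4 in young cells (0.10), and Prdm1, which encodes the plasma cell factor BLIMP1, read 15.4 and 12.6 in aged and young cells (0.06). Sdc1, which encodes the plasma cell marker CD138 and is also made by other cells, read 36.7 and 24.3 (0.25). Txndc5 and Fkbp11, folding enzymes of the ER, fell in CD31_CD45 relative to PDGFRa+ cells (-2.16, adjusted p = 0.00727, and -1.28, adjusted p = 0.00438). They are the 2 of 12 called there, beside 4.70% of all genes lower.

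Of 14 B cell receptor signalling genes, 7 rose in CD31_CD45 cells over PDGFRa+ cells (5.40% of all genes) and 7 over satellite cells (6.57%). Most are shared with other blood cells, such as the phosphatase Ptpn6 (1.93, SE 0.17, adjusted p = 0.00739, over PDGFRa+ cells) and the inhibitory Fc receptor Fcgr2b (3.16, SE 0.22, adjusted p = 0.00524). Blnk, the linker that joins Cd79a and Cd79b signals to downstream enzymes, was brightest in satellite cells, at 918.6 in aged and 1525.7 in young cells, against 509.1 in aged and 339.7 in young CD31_CD45 cells. It fell in PDGFRa+ relative to satellite cells (-4.12, SE 0.35, adjusted p = 0.0110). In the CD31_CD45 age pair 11 of 14 were higher and 0 at least 2-fold.

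The ER lists gave the setting of Xbp1, Ssr4 and Sec11c. Of 28 genes of ER translocation, signal peptidase and oligosaccharyltransferase, the median was -0.43 in CD31_CD45 relative to PDGFRa+ cells, against -0.01 over all genes. Here 0 rose (5.40% of all genes) and 5 fell (4.70%). They include Ssr2, a partner of Ssr4 in its complex (-1.06, SE 0.20, adjusted p = 0.0348), and the channel subunit Sec61a1 (-1.16, SE 0.15, adjusted p = 0.0157). Sec11a, the paralog of Sec11c in signal peptidase, stood at -0.96 (SE 0.09, adjusted p = 0.00868), opposite in sign to Sec11c. In the CD31_CD45 age pair 12 of 28 were higher and 16 lower, with none at least 2-fold, and Stt3a, a catalytic oligosaccharyltransferase subunit, was highest at 0.97.

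Of 32 ER folding, degradation and unfolded protein response genes, 2 fell in CD31_CD45 relative to PDGFRa+ cells and 0 rose, beside 4.70% and 5.40% of all genes. Those that fell were Selenos (-1.81, SE 0.15, adjusted p = 0.00714) and the chaperone Hspa5 (-1.16, SE 0.23, adjusted p = 0.0390). Between PDGFRa+ and satellite cells 8 rose and 1 fell, beside 4.09% and 3.20% of all genes. Derl2, a paralog of Derl3, was among the 8, at 1.01 (SE 0.09, adjusted p = 0.0123). In aged CD31_CD45 cells 22 of 32 were higher, with a median of 0.09 and none at least 2-fold. Derl1 (-0.02) and Derl2 (0.13) differed little with age there, beside 1.15 for Derl3. Of the 8 genes named above with the promoter element, Creld2 stood at 0.59, Hspa5 at 0.53, Hsp90b1 at 0.42 and Calr at 0.38, and Syvn1 at 0.07, Pdia6 at 0.01, Canx at -0.04 and Dnajc3 at -0.08.

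Most relatives of Ms4a1 were higher in CD31_CD45 cells, as Ms4a1 was, and those of Eaf2 differed little. Of 8 other MS4A genes 7 were higher in CD31_CD45 than in PDGFRa+ cells. Of the 8, 3 rose and 1 fell, beside 5.40% and 4.70% of all genes. Those that rose were Ms4a6d (3.63, SE 0.17, adjusted p = 0.00281), Ms4a6c (3.55, adjusted p = 0.00245) and Ms4a7 (3.24, adjusted p = 0.00567), which are known from macrophages and monocytes. Ms4a4d fell (-2.77, SE 0.44, adjusted p = 0.0244). All 8 were higher in aged CD31_CD45 cells (median 0.37), and Ms4a4b, a T cell member of the family, was at least 2-fold higher, at 348.3 in aged and 97.8 in young cells (log2 1.59). Of 6 EAF and ELL complex genes none was called between populations, beside 7.29% to 11.7% of all genes, so few calls would be looked for among 6. Eaf1, the paralog of Eaf2, read 11.8 in aged and 12.8 in young CD31_CD45 cells.

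**Figure D4:**
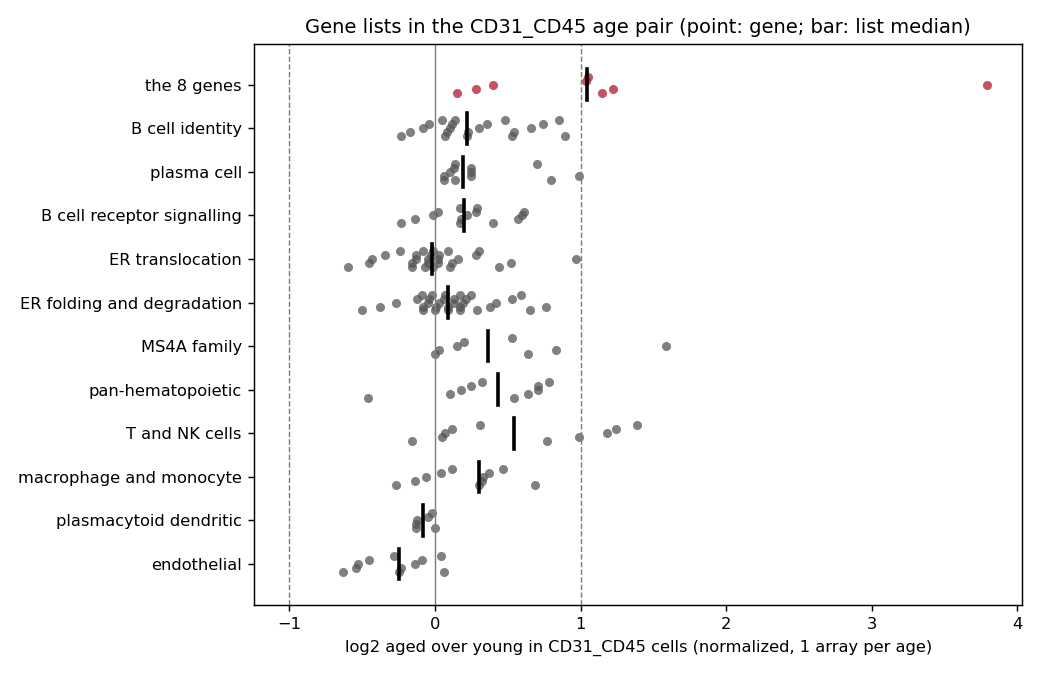
Log2 aged over young in CD31_CD45 cells for the 8 genes (red) and for gene and marker lists (grey), 1 point per gene and a bar at the median, with dashed lines at 2-fold. The median of the 8 genes is 1.05, that of B cell identity genes 0.22, of T and NK cell markers 0.54 and of endothelial markers -0.25.

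Over all genes tested, those nearest in pattern to each member were found by the root mean square difference of mean-centred log2 values over the 6 arrays, which describes these arrays and carries no test. The nearest to Ms4a1 were the B cell genes Cd37 (0.0507) and Fcmr (0.0689), and Ly6d (0.0758). Cd37 read 149.5 in aged and 66.0 in young CD31_CD45 cells, and Fcmr 156.8 in aged and 72.2 in young cells, close to the values of Ms4a1. The nearest to Cd79b were Oas2 (0.113), Stmn2 (0.134) and Cyp4f18 (0.192).

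All 3 genes nearest to Mzb1 were immunoglobulin variable genes: Igkv4-72 (0.0994), Igkv4-71 (0.121) and Ighv9-3 (0.129). Igkv4-72 read 1009.4 in aged and 38.0 in young CD31_CD45 cells and at most 21.0 elsewhere, and its probe may share signal with near-identical family members. The 3 nearest to Derl3 were of the same kind, Igkv8-18 (0.0662), Ighv8-5 (0.0828) and Ighv2-4 (0.0877). Igkv8-18 read 40.7 in aged and 2.1 in young CD31_CD45 cells.

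Eaf2 lay nearest to Tent5c (0.167), which read 62.5 in aged and 53.9 in young satellite cells beside its values in CD31_CD45 cells. Syngr1 (0.168) and Gas2l2 (0.219) followed. The nearest to Xbp1 were Ly6k (0.0713), Ephx2 (0.0783) and Samd4 (0.0845), to Ssr4 Habp4 (0.0414), Polb (0.0451) and Rhbdd3 (0.0454), and to Sec11c Msrb1 (0.0915), Gna11 (0.0946) and Cavin1 (0.0968). None of these 9 belongs to the ER or B cell lists. Ly6k was dim, at 38.6 in aged and 13.9 in young satellite cells, and the offset narrows the differences of such genes. Its closeness to the bright Xbp1 therefore holds on the normalised scale only.

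**Figure D5:**
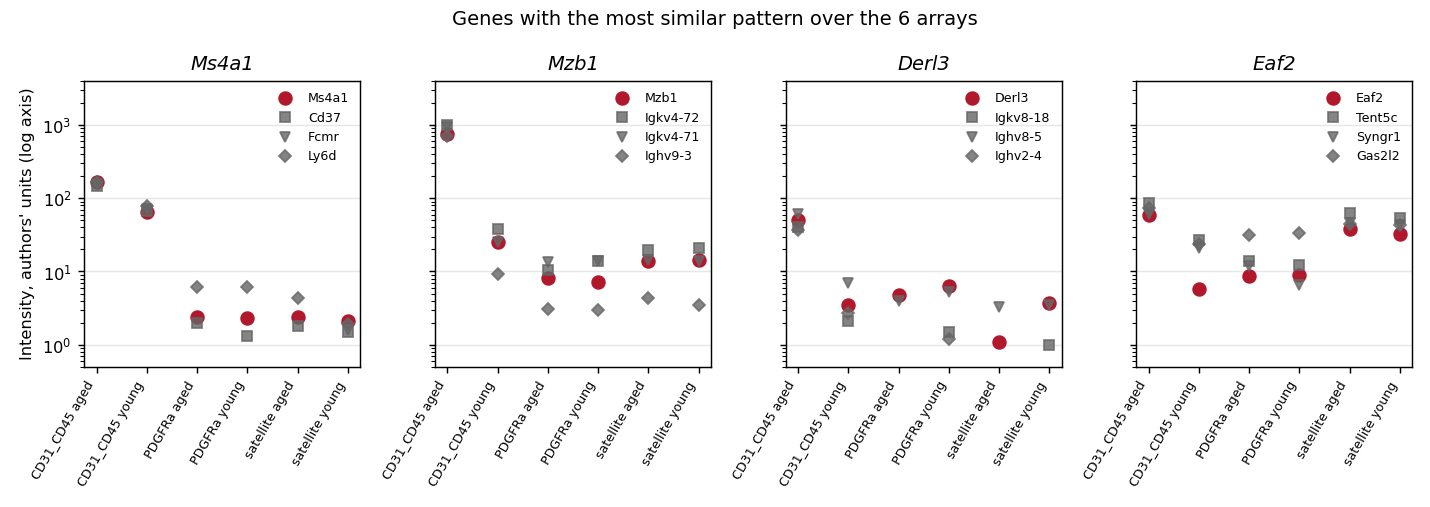
Intensity in the authors' units on a log axis for Ms4a1, Mzb1, Derl3 and Eaf2 (red) and the 3 genes of most similar pattern (grey) on each of the 6 arrays. Mzb1 and Derl3 follow immunoglobulin variable genes, with the aged CD31_CD45 array above all others, and values not above background are not drawn.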

How the data were processed

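Scanner files held, per the file headers, the median spot intensity at 635 nm merged from 3 gains. The authors also deposited a table of linear intensity. Each value in it was found here to be a constant per array times the difference between the spot median and the mean of 2736 blank spots after 5% trimming (largest difference 0.0938), with cells left empty near background. Its direction is that of a single colour, and no further step is given in the sources used here.

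Log2 values were computed from the scanner files with limma 3.58.1 in R 4.3.3: normexp with the blank spots as background, offset 50, and quantile normalisation. Local background followed its own spot (correlation of logs 0.961 to 0.980) and was kept as an alternative. Symbols were updated by Entrez identifier, and the brightest probe per gene was used. Genes above background on at least 2 arrays were tested (18372) with population and age as terms (2 residual degrees of freedom, prior 1.50), two-sided, adjusted by Benjamini and Hochberg over all genes. The fit was tested on simulated data.

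The members and gene lists were chosen with earlier results of these data known. The text names all members, up to 4 called list genes per direction and comparison, the sort genes and the 3 genes nearest to each member. Other list genes were chosen after their values were seen. Of the list genes, 17 of 139 in pathway lists and 8 of 102 in marker lists had no named probe and were not analysed here.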

Additional observations from a re-analysis of the deposited data

Results flagged for a closer look

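The aged over young difference had opposite signs in different populations for 3 of the genes that passed 2-fold in CD31_CD45 cells. Cd79b stood at 1.04 in CD31_CD45 cells, against -0.25 in PDGFRa+ and -0.06 in satellite cells. Mzb1 stood at 3.79 in CD31_CD45 cells, against -0.02 in satellite cells. Derl3 stood at 1.15 in CD31_CD45 cells, against -0.03 in PDGFRa+ and -0.10 in satellite cells. With 1 pair of arrays per population these differences were not tested, and the opposite values are small.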

How the results depend on the processing

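The counts of members called or at least 2-fold were recomputed under each alternative. With the local background they were 0 for CD31_CD45 over PDGFRa+ cells and 0 over satellite cells, and for aged over young 1 in CD31_CD45 (Mzb1, higher), 1 in PDGFRa+ and 1 in satellite cells. Those in PDGFRa+ and satellite cells were Sec11c, lower in the aged sample (-1.96 and -1.34, against -0.21 and 0.05 with blank spots as background). When scanner set was a block they were 0 and 0 for CD31_CD45 over PDGFRa+ and over satellite cells. In the value table of the authors a single member (1) was called for PDGFRa+ over satellite cells and 1 was at least 2-fold in the satellite age pair. Leaving out 1 array gave 0 to 6 members for CD31_CD45 over PDGFRa+ and 0 to 5 over satellite cells, each with 1 residual degree of freedom, the lone sample being assumed to vary like the others. An offset of 10, median scaling, no age term, other filters and the mean of all probes changed none of these counts. Each member has 1 probe and was above background on all 6 arrays. The filters and the mean of all probes therefore could not change its log2 values. The cause of the counts that changed was not tested.

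Over all genes, calls for CD31_CD45 over PDGFRa+ cells numbered 1857, and 3805 in the value table of the authors, 2945 at offset 10, 835 with the scanner block, 289 with the local background and 1131 without the young PDGFRa array. Over satellite cells they numbered 2147, 4429, 3382 and 342 with the table, the offset and the local background in place. PDGFRa+ over satellite cells gave 1339, then 3012, 2213 and 68, and 0 without either PDGFRa array. At least 2-fold with age were 105 genes in CD31_CD45 cells (428, 217 and 927), 76 in PDGFRa+ (538, 197 and 1084) and 221 in satellite cells (887, 478 and 1266) under the same 3 settings. No paired analysis was possible because the labels give no replicate numbers beyond 1 array per population and age. Signal over background limits Derl3 and Eaf2, and the number of arrays limits every comparison.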

Other observations

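In the satellite age pair most genes of the B cell and plasma cell lists differed little. Of 18 B cell identity genes 7 were higher and 11 lower, with a median of 0.00 and 1 at least 2-fold, and of 12 plasma cell genes 9 were higher, with a median of 0.02 and 1 at least 2-fold, beside 1.13% of all genes. The 2 were Btla and Sdc1. Btla, an inhibitory receptor of lymphocytes, read 251.4 in aged and 84.2 in young satellite cells (log2 1.34), and Sdc1 read 91.7 in aged and 19.3 in young satellite cells (1.26). Ell2, a partner of Eaf2 known for its part in immunoglobulin secretion by plasma cells, read 42.5 in aged and 15.1 in young satellite cells (0.66). Ms4a4d read 836.9 in aged and 315.1 in young satellite cells (1.45). Markers of mesenchymal progenitors were higher in the same pair, with 5 of 10 at least 2-fold and a sum of 13439.1 in aged and 9959.3 in young cells, and Lyz2 (2.55) and S100a9 (1.57), genes of macrophages and granulocytes, were also higher. The part of these cells in the differences was not tested.

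In the PDGFRa+ age pair Fcgr2b read 43.9 in aged and 4.5 in young cells (log2 1.07). Of 10 macrophage and monocyte markers 7 were higher and 3 lower there, with a median of 0.15, and 1 was at least 2-fold, Lyz2, at 1904.6 in aged and 110.1 in young cells.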
